A study of Danio rerio with 82 samples.

Results

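Mitochondrial ribosomal proteins are encoded in the nucleus, made in the cytosol and imported into mitochondria, where they form the ribosome that translates the few messenger RNAs of the mitochondrial genome. Their transcripts were followed through 4 stages of zebrafish oocyte growth. The genes were found by name, as every locus whose symbol starts with mrpl (large subunit) or mrps (small subunit) in any letter case. This gave 75 of the 28405 loci in the expression files, 43 named mrpl and 32 named mrps, under 74 symbols. The names, not the measured values, chose the loci. Of the 74 symbols, 72 occur in current zebrafish name tables, and MRPS36 and MRPL55 do not.

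The study (82 samples) examined histone marks, DNA methylation and transcripts in zebrafish gametes and early embryos, and the 4 libraries used here are poly(A) RNA-seq of growing oocytes. The oocytes came from adult wild type females of the Tu strain, and the labels name no engineered allele and no agent. They were labelled stage I (G1-phase oocyte), stage II (S-phase oocyte), stage III (prophase I oocyte) and stage IV (metaphase I oocyte). They were picked from dissected ovaries with tweezers by their morphology, and surrounding follicle cells were taken off only as far as possible. Each stage has 1 library, and the sources used here do not state the number of females or oocytes behind it. There is therefore no replicate, no test and no p-value below, and a difference describes 2 libraries.

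The mitochondrial ribosome descends from that of bacteria. Its proteins include relatives of bacterial ribosomal proteins and many that mitochondria acquired later. In mammals it makes the hydrophobic core subunits of the respiratory chain and of ATP synthase, and inserts them into the inner membrane while they are made. Growing oocytes multiply their mitochondria, which the embryo inherits from the mother. In young zebrafish oocytes many mitochondria gather in the Balbiani body beside the nucleus, which disperses as the oocyte grows.

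Values are the authors' FPKM, that is fragments scaled to transcript length and to sequencing depth, so levels can be set side by side between genes. Summed FPKM over all loci lay between 682092 (stage IV) and 805766 (stage III), and 11100 to 14536 loci reached 1 FPKM. A value's bounds are the authors' confidence bounds in its library, which cover the estimate within the library and not the spread between animals. Fragment counts were not used, and the fragments that would give each value's bounds by counting alone, here fragment equivalents, had a median over the members of 426, 397 and 437 in stages I, II and III and 94 in stage IV. Of 9 oocyte marker genes that averaged 1 FPKM or more, 1 was higher and 7 were lower by at least 2-fold in stage IV than in stage I. For the whole list (10 loci) the summed FPKM was 4179.6, 3254, 2582 and 1313 in stage order. Figla, a further oocyte transcription factor, was listed at 0 in every library.

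At 4 loci the value was listed as 0 in all 4 libraries, and all 4 loci are named for small subunit proteins. They are mrps15 on the unplaced scaffold Zv9_scaffold3563, mrps16 on Zv9_NA192, and mrps22 at 2 loci on chromosome 15 whose ends lie 45802 bases apart. A listed 0 can be a failed estimate, so no statement about their expression is made. The other 71 loci (43 large, 28 small) had a mean over the libraries of at least 1 FPKM, the filter that 14109 of all loci passed.

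These 71 genes were well expressed in the first 3 stages and spread over a wide range. In stage order, the median member stood at 50.7, 52.6, 53.8 and 12 FPKM, while the median of all 14109 loci was 12.4, 15.2, 13.1 and 5.98 FPKM. By its mean over the stages the median member stood at percentile 77.6 of all tested loci, 68 of 71 were in the upper 50 percent, and 8 were above percentile 90. The genes with the highest means were MRPS36, mrpl12, mrpl14, mrps6 and mrpl18. MRPS36 carries the name of a small subunit protein, although the mammalian protein was later placed in a 2-oxoacid dehydrogenase complex, and its readings were 147, 156, 196 and 28.2 FPKM in stage order. For mrpl12, the flexible stalk protein that recruits translation factors, the levels were 141, 154, 168 and 16.4 FPKM. Both were lowest in stage IV.

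The lowest means belonged to MRPS12 (1 of 2), MRPS30 (1 of 2), MRPS12 (2 of 2), MRPL51 and MRPL53 (1 of 2). All but MRPL51 are loci of a gene that the annotation lists more than once. MRPS30 (1 of 2), for instance, read 3.70, 2.69, 4.81 and 5.80 FPKM, and its namesake mrps30 on another chromosome 24.8, 29.3, 31.9 and 64.5 FPKM.

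Between stages I and II the members hardly differed. No member was higher and none was lower by at least 2-fold, the size called a difference throughout, measured as a difference of at least 1 in log2(FPKM + 1). Over all 14109 loci 2.67% were higher and 3.15% lower. The member median was 0.058 against 0.20 over all loci, and 66 of 71 members lay within 0.5 of 0, as did 9556 of the 14109 loci. With the libraries scaled by the median of ratios the member median was -0.17, so its direction depends on the scaling. The largest positive difference was that of mrps35, a mitochondria-specific small subunit protein, at 0.67 (in stage order 16.6, 26.9, 33.4 and 23.3 FPKM). It was followed by mrps14 (0.64), mrpl19 (0.47), mrpl32 (0.45) and mrps33 (0.44). The largest negative difference was in mrpl20, a relative of the bacterial L20 that binds early in large subunit assembly, at -0.85. Its 4 readings were 179, 99.2, 70.4 and 21.7 FPKM, lower at each stage than at the one before, whereas most members stayed level until stage III. After it came mrps24 (-0.69), a relative of bacterial S3, then mrpl38 (-0.61), mrpl14 (-0.41) and MRPS17 (-0.37). Mrps24 read 136, 83.9, 93.8 and 34.8 FPKM, so that its stage I level stood above the other 3.

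Stages II and III were also alike for most members. In stage III 2 members were higher and 0 lower, where 8.67% of all loci were higher and 7.5% lower. The member median was 0.073, and all loci had a median of -0.097; with mitochondrially encoded genes left out of the scaling the member median was -0.044. MRPL53 (1 of 2), a copy of a mitochondria-specific large subunit gene, differed by 1.79, from 11.6 FPKM (bounds 6.95 to 16.2) to 42.4 FPKM (bounds 33.4 to 51.4). MRPS12 (1 of 2), a copy of the gene of the decoding centre protein S12, differed by 1.03 at 1.63 and 4.38 FPKM, and its bounds overlapped. Next on the positive side were mrpl13 (0.76), MRPS30 (1 of 2) (0.66) and mrpl38 (0.62). The most negative were MRPL52 (-0.69), mrps18b (-0.68), MRPL53 (2 of 2) (-0.50), mrpl20 (-0.49) and mrpl10 (-0.48), all short of 2-fold.

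Across stages I to III as a whole the members were more level than the median locus. The median member spanned 0.37 on the log2 scale between its lowest and highest stage, and all loci spanned 0.68. A span over 1 was found in 3 members (4.23%), against 25.2% of all loci. The members' median level was above that of all loci, and loci of matched level were not compared. Stage III was more than 1 above stage I in 2 members and more than 1 below it in 1 (mrpl20, -1.33), with 10.1% and 6.94% of all loci. The order of levels among members was similar in these stages, as it was over all loci. Pearson's r across the 71 members was 0.96 between stages I and II (Spearman's rho 0.94) and 0.92 between stages I and III (0.86), and over all loci rho was 0.96 and 0.91. These are descriptions over genes that share 4 libraries, and genes are not replicates.

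**Figure D1:**
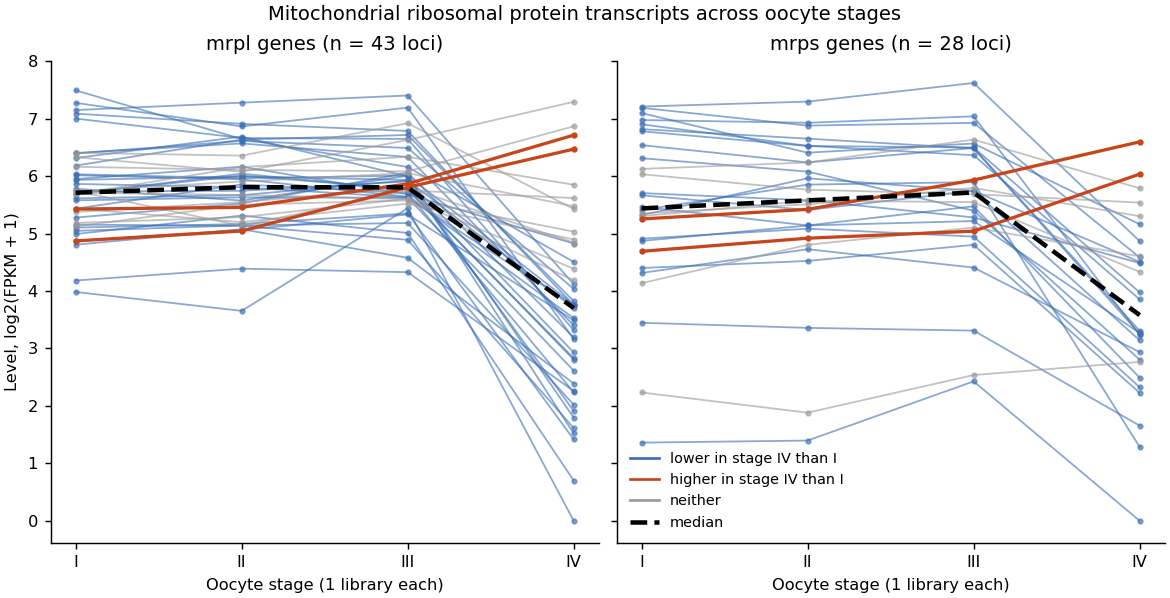
Levels of the mitochondrial ribosomal protein genes by oocyte stage. The x axis gives the stage and the y axis log2(FPKM + 1), with large subunit genes (n = 43) in the left panel and small subunit genes (n = 28) in the right; each line is 1 gene, blue where stage IV was at least 2-fold below stage I, red where at least 2-fold above and grey otherwise, and the black dashed line is the median. Lines run nearly level from stage I to III, and in stage IV 50 end lower and 4 higher.

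At stage IV the set parted from its earlier levels. Against stage III, 52 members were lower and 0 higher, while 46% of all loci were lower and 16.4% higher. The member median was -2.25 and that of all loci -0.82. By at least 4-fold 40 members were lower (23.9% of all loci), and by at least 8-fold 19 (9.11% of all loci). On the log2(FPKM + 1) scale loci with a low stage III level cannot reach such folds, which limits the share of all loci. Median stage III levels were 53.8 FPKM in members and 13.1 FPKM over all loci, and loci of matched level were not compared. In all 52 the bounds of the 2 libraries were apart, as they were in 44.6% of all loci on the lower side. For MRPL53 (1 of 2) and MRPS12 (1 of 2) the stage IV bounds were listed as 0 to 0. Such bounds are apart from any lower bound above 0, and the share of all loci includes cases of this kind. Beside MRPL53 (1 of 2), which was listed at 0 in stage IV, the most negative differences were in mrps33 (-4.61), mrpl41 (-4.49), mrpl24 (-4.31) and MRPL52 (-4.20). The most positive were in mrps30 (0.99), mrpl28 (0.85), mrpl48 (0.78), mrps25 (0.67) and mrpl13 (0.66). With median-of-ratios scaling 47 members were lower and 6 higher, which puts 88.7% of the called members on the lower side in place of 100%. In bulk RNA, fewer cells of a type and less RNA per cell cannot be told apart.

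The comparison of stage IV with stage I gave 50 lower and 4 higher members and 17 that were neither. Over all loci 44.4% were lower and 19.1% higher. It uses the same stage IV library as the comparison with stage III and is no second measurement of it. The member median was -2.18 (quartiles -3.03 and -0.87, range -4.52 to 1.60), and the median over all loci was -0.75. As a ratio of FPKM, stage IV stood at 19.2% of stage I in the median member and at 49.9% in the median locus. At or under 10% stood 18 of 71 members and 20.9% of all loci, and at or under 25% stood 42 members and 36% of all loci. Above 100% stood 9 members and 34.9% of all loci. In 49 of the 50 lower members and in all 4 higher ones the bounds of the 2 libraries did not overlap. MRPS12 (1 of 2) was the exception, and MRPL53 (1 of 2) is among the 49 with stage IV bounds of 0 to 0. Over all loci 42.8% were lower and 18.7% higher with bounds apart.

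Set against all 3 earlier stages, 57 members had a stage IV upper bound under every earlier lower bound, a pattern found in 46% of all loci. MRPL53 (1 of 2), with stage IV bounds of 0 to 0, is among the 57. For 6 members the lower bound in stage IV was above every earlier upper bound, against 21.1% of all loci. Stage IV was the lowest of the 4 values in 61 members and in 59.6% of all loci. The highest value fell in stage I for 19 members, stage II for 16, stage III for 29 and stage IV for 7, where 27% of all loci were highest. The counts for stages I to III have no share of all loci beside them.

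**Figure D2:**
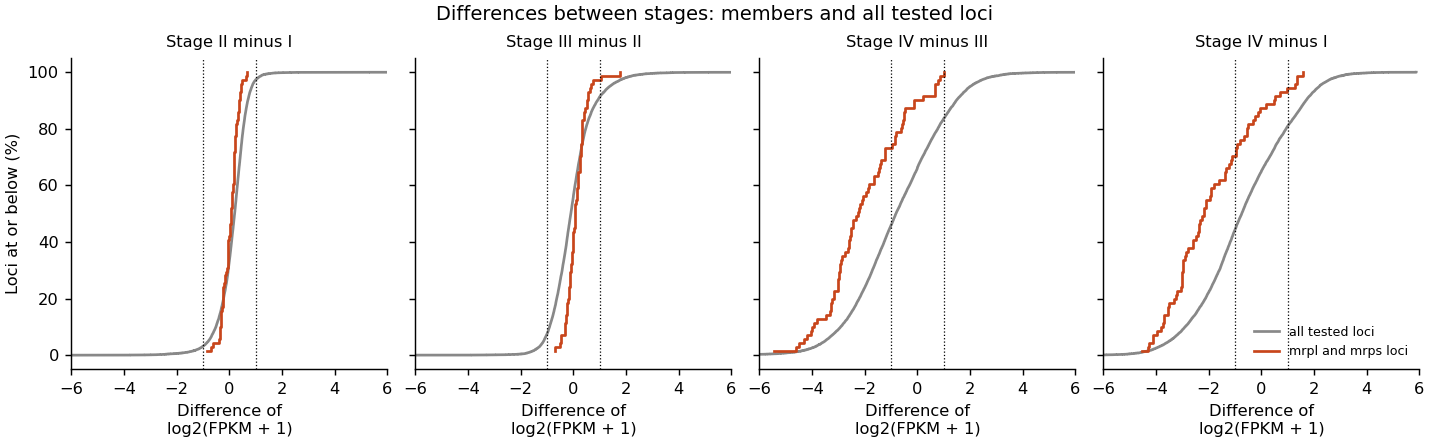
Cumulative distributions of the stage differences. The x axis of each panel gives the difference of log2(FPKM + 1) between 2 stages and the y axis the cumulative percent of genes, in red for the 71 members and in grey for all 14109 loci tested; dotted lines mark -1 and 1. The 2 curves lie close together and are narrow around 0 in the first pair of comparisons; against stage IV the red curve lies to the left of the grey one, with medians of -2.18 and -0.75 for stage IV against stage I.

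Subunits were assigned by name. For the large subunit, stage IV was lower than stage I in 30 of its 43 genes and higher in 2, and the median difference was -2.36. MRPL52, a protein that bacteria lack, read 78.6, 102 and 62.9 FPKM in stages I, II and III and 2.47 FPKM (bounds 0.454 to 4.49) in stage IV, a difference of -4.52. It is at chromosome 7, 25281977 to 25284234 of danRer7, the build of all coordinates here. Mrpl24, whose bacterial relative L24 starts the folding of the large ribosomal RNA and ends up beside the exit of the peptide tunnel, read 30.8, 38.8, 31.2 and 0.625 FPKM and differed by -4.29 (chromosome 19, 8118327 to 8128670). In both genes stage IV was far under each of the other 3 stages, and each stage IV value rests on about 6 fragment equivalents. Which gene stands lowest depends on the pseudocount, since at 0.1 mrpl24 (-5.41) lay below MRPL52 (-4.94) and at 5 mrpl14 (-3.62) lay below MRPL52 (-3.48).

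Mrpl41, a mitochondria-specific protein, stood at 54, 46.6, 63.3 and 1.87 FPKM in the 4 stages, a difference of -4.26 (chromosome 5, 26741829 to 26744114). Mrpl14, whose bacterial relative L14 sits on the face that meets the small subunit, held 154, 116 and 145 FPKM through stage III. It was among the most abundant members until stage III and reached 7.96 FPKM (bounds 5.75 to 10.2) in stage IV, a difference of -4.11 (chromosome 13, 43329183 to 43332022). Neither gene's stage IV value came near any earlier one.

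Several conserved core proteins lay between these extremes. Mrpl3, a relative of L3 near the peptidyl transferase centre, held 60.2, 62.7 and 60.1 FPKM and then 6.63, so that stage I was 9.08 times stage IV. MRPL2, a relative of the universally conserved L2, read 33.9, 44.3, 46.7 and 17.2 FPKM and at -0.94 just missed the 2-fold size. Mrpl44, a protein with the fold of ribonuclease III, went with the lower group at 57.2, 55, 48.5 and 12.4 FPKM (-2.11). The mitochondria-specific mrpl45, which in mammals ties the ribosome to the inner membrane, read 46.8, 48.5, 48.3 and 5.13 FPKM (-2.96).

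Further relatives of bacterial proteins were lower as well. Mrpl1, a relative of the L1 protein that forms the mobile arm beside the tRNA exit, read 50.9, 63.3, 53.8 and 5.99 FPKM (-2.89). Mrpl27, whose bacterial relative reaches into the peptidyl transferase centre, read 52.3, 52.6, 59 and 2.76 FPKM (-3.82). Mrpl17, a relative of bacterial L17, read 135, 119, 109 and 12.5 FPKM (-3.33), and mrpl32, which in yeast and mice is cut to its mature form by a mitochondrial protease, read 71.7, 98.5, 104 and 13.2 FPKM (-2.36). Stage IV was the lowest value in each of these 4 genes, though mrpl17 was highest in stage I and mrpl32 in stage III.

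Other lower genes of the large subunit with bacterial relatives were mrpl35 (-3.20), mrpl23 (-3.03), mrpl47 (-2.86), mrpl15 (-2.49), mrpl22 (-2.36) and mrpl36 (-2.27), beside those named elsewhere. Those that mitochondria added included mrpl37 (-3.69), MRPL42 (-3.68), mrpl43 (-3.54), mrpl54 (with 83.5, 93.9, 79.6 and 9.58 FPKM), MRPL51 (-1.92) and mrpl46 (-1.38). MRPL55, left unsorted by origin, was also lower (-1.91). MRPL42 read 127, 100.3, 99.2 and 8.98 FPKM and MRPL51 17.2, 20, 19.1 and 3.79 FPKM. Members with high and with low levels for this set were thus both among the lower ones, though MRPL51 stood at percentile 52.3 of all tested loci. Across members r between the log2 level in stage I and the difference was -0.31 (rho -0.32), and over all loci -0.17 (-0.13). The stage I level also enters the difference itself.

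Among genes with small subunit names 20 of 28 were lower, 2 were higher and the median difference was -1.86. They include mrps18a and mrps30, whose mammalian proteins are part of the large subunit. Whether the 2 groups of names differ was not tested, and their shares of lower genes were close (69.8% and 71.4%). Mrps33, which has no bacterial counterpart, read 41.5, 56.8, 58.5 and 1.44 FPKM (-4.12, chromosome 4, 11166791 to 11170563). Mrps28 stood at 125, 121, 131 and 8.42 FPKM and differed by -3.74. In both, stage IV stood apart below the other 3 stages, which were level in mrps28 and lowest at stage I in mrps33.

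Mrps34, a mitochondria-specific protein needed for small subunit stability in mice, was at 20.1, 22, 26.9 and 3.68 FPKM (-2.17). Mrps5, a relative of bacterial S5, was at 29.1, 32.9, 29.9 and 4.01 FPKM (-2.58). Mrps27, a protein with pentatricopeptide repeats that bind RNA, was lower by less, at 51.2, 46.8, 37.9 and 21.4 FPKM (-1.22). All 3 were lowest in stage IV.

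In the head of the small subunit, mrps7, whose bacterial relative organises the folding of that domain, read 43.2, 34.3, 43.4 and 4.62 FPKM (-2.98). Mrps9, whose bacterial relative reaches the tRNA in the peptidyl site, read 28.3, 34.3, 36.2 and 8.64 FPKM (-1.60), and mrps14, another head protein, read 38.9, 61.3, 52.6 and 7.82 FPKM (-2.18). Mrps10 read 49.8, 41.5, 52.5 and 21.7 FPKM (-1.16). All 4 were lowest in stage IV, mrps7 by the widest margin and mrps10 by the smallest. The other lower genes of the small subunit were mrps21 (-3.56), mrps26 (-3.23), MRPS17 (-3.05) and mrps31 (-1.38), beside those named elsewhere.

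**Figure D3:**
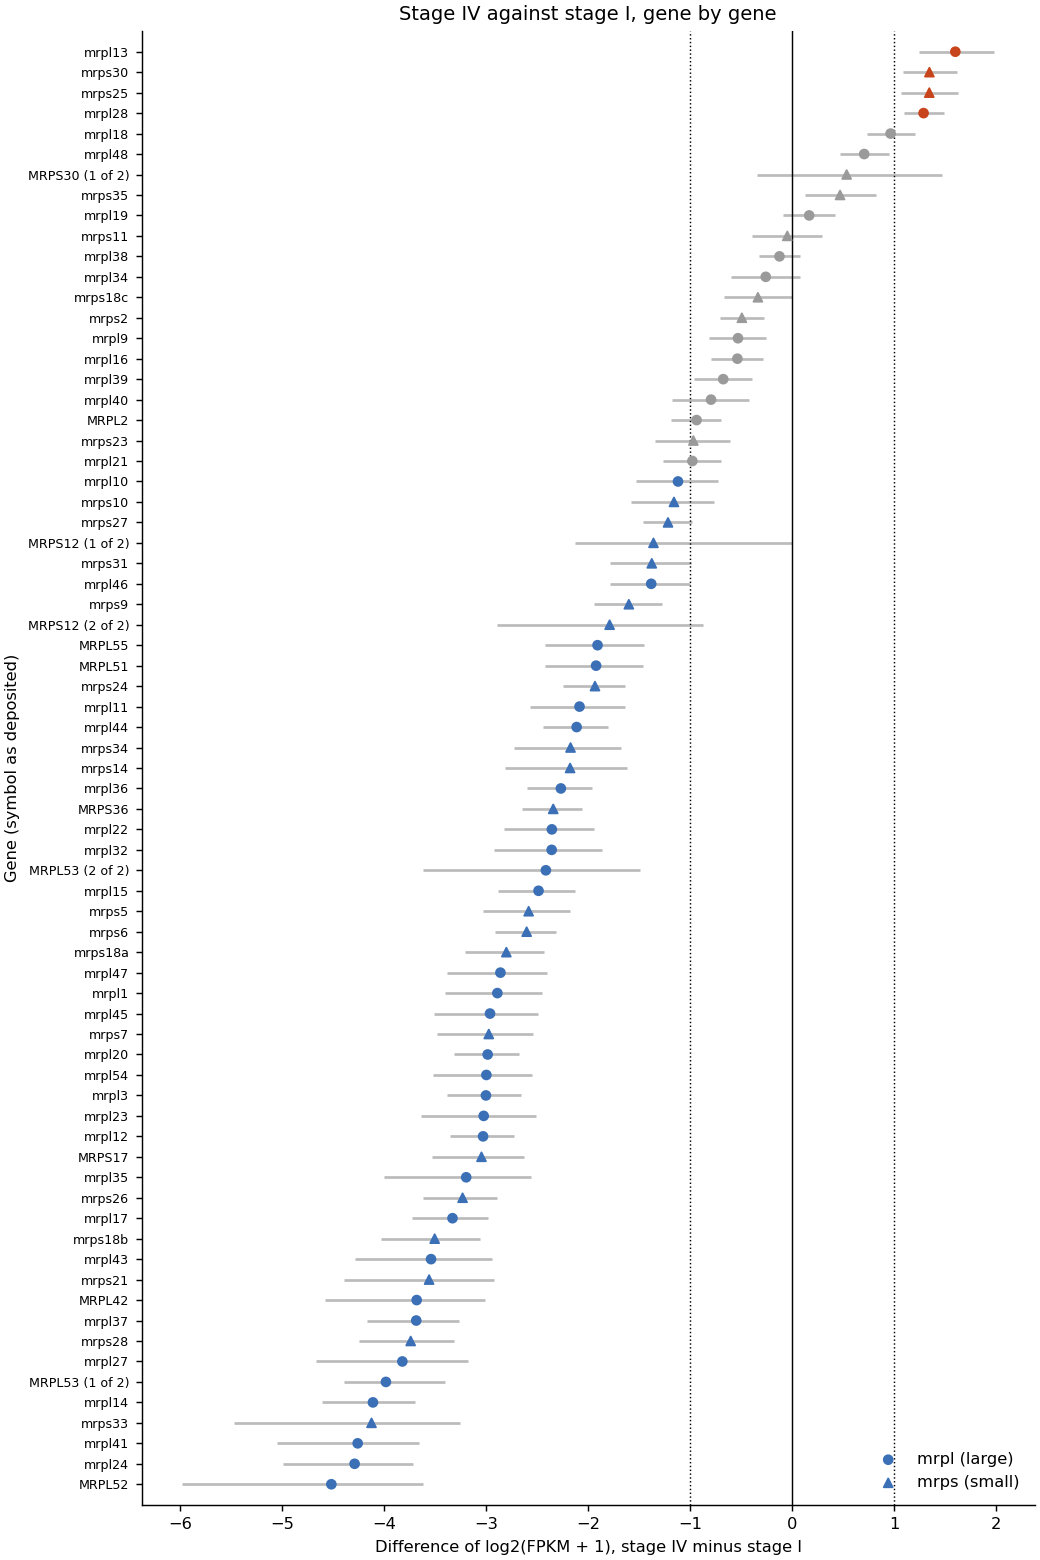
Stage IV against stage I for each member. Genes are ordered by the difference of log2(FPKM + 1), stage IV minus stage I, on the value axis; circles are mrpl genes, triangles are mrps genes, grey bars give the range that the authors' bounds of both libraries allow, and dotted lines mark differences of -1 and 1. Most points lie left of -1, from -4.52 for MRPL52, and mrpl13, mrps30, mrps25 and mrpl28 lie right of 1.

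In the other direction, 4 members were higher in stage IV than in stage I. Mrpl13, a relative of bacterial L13, which joins early in large subunit assembly, read 28.3 FPKM (bounds 23.6 to 32.9) in stage I, 32 and 54.9 FPKM in stages II and III and 87.6 FPKM (bounds 79.2 to 96) in stage IV. Its level was higher at each step, and the difference was 1.60 (chromosome 16, 17347532 to 17392532). Mrps30, named for the small subunit but located on the large subunit in mammalian structures, read 24.8, 29.3, 31.9 and 64.5 FPKM and differed by 1.34 (chromosome 5, 63851256 to 63883852). Most of its difference lay in the last step.

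Mrps25, a mitochondria-specific small subunit protein, stood at 37.2, 41.8, 60 and 95.8 FPKM (1.34, chromosome 8, 55359735 to 55363179). Mrpl28, a relative of bacterial L28, stood at 42, 42.9, 57.3 and 104 FPKM (1.29, chromosome 15, 16147297 to 16157655). In both, stage IV was above the other 3 stages and stage III above the first 2. Just under the 2-fold size were mrpl18, whose bacterial relative binds 5S ribosomal RNA, at 79.4, 66.4, 97.9 and 156 FPKM (0.96), and mrpl48 at 70.6, 68, 66.7 and 116 FPKM (0.70). Against stage III none of these 6 reached 2-fold on the deposited scale, and with median-of-ratios scaling 6 members did.

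The 17 members that were neither spanned -0.98 (mrpl21) to 0.96 (mrpl18). Just past the 2-fold size on the lower side were mrpl10 (-1.12), mrps10 (-1.16) and mrps27 (-1.22). Just short of it were mrpl21 (-0.98), mrps23 (-0.97) and MRPL2 (-0.94). Mrps11, a relative of S11 on the small subunit platform, read 39.8, 44.5, 54.5 and 38.4 FPKM, and mrps2, a relative of S2, read 64.5, 53.3, 50.5 and 45.5 FPKM. Mrpl16, a relative of bacterial L16 near the aminoacyl site, read 42.3, 35.7, 44.9 and 28.8 FPKM (-0.54). Mrpl19, a relative of L19 at the subunit interface, read 50.4, 70.3, 79.8 and 56.6 FPKM (0.17), and its stage IV level lay between those of stages I and II. Mrpl40 was at 35.4, 38, 47.7 and 19.9 FPKM (-0.80). Mrpl21 had its highest level in stage III, at 83.8, 80.9, 120.1 and 42 FPKM. The differences of mrpl34, mrpl38, mrps11 and mrps18c lay between -0.34 and -0.049 and were above 0 with median-of-ratios scaling, so they carry no direction.

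The make-up of the set in stage IV was unlike that in the 3 earlier stages. The standard deviation of log2(FPKM + 1) over the 71 members was 1.09, 1.03, 0.924 and 1.61 in stages I to IV. Over all tested loci it was 2.02, 2.02, 1.99 and 2.43, so stage IV was the widest there too. The counts by level and the share of the highest genes, given next, have no figure over all loci beside them. Members of at least 50 FPKM numbered 37, 36, 43 and 8, and those under 10 FPKM 3, 3, 3 and 33. The 5 highest genes held 17.8%, 15.8%, 17.2% and 34.9% of the members' summed FPKM. In stage I they were mrpl20, mrpl14, MRPS36, mrps6 and mrpl12, and in stage IV mrpl18, mrpl48, mrpl28, mrps25 and mrpl13, with no gene in common. Across members r between stage I and stage IV was 0.37 (rho 0.33), where it was 0.71 (0.69) over all loci. These coefficients also depend on the range of levels, which was narrower among members. The differences between stage IV and stage I spread no wider in members (standard deviation 1.58) than over all loci (1.75). The members together made up 0.558, 0.594, 0.550 and 0.235 percent of all FPKM in stages I to IV.

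The stalk of the large subunit, a group chosen after the values were seen, recruits translation factors. Its 3 proteins were all lower. Next to mrpl12 (-3.03), mrpl11 at the stalk base read 37.8, 45.1, 65.5 and 8.14 FPKM (-2.09), and mrpl10, which anchors the stalk, read 60.7, 70.7, 50.4 and 27.4 FPKM (-1.12). Stage IV was the lowest value in each of the 3. Of all members 70.4% were lower, and other such groups varied. At the tunnel exit 5 of 5 proteins were lower. In the central protuberance, another part of the large subunit, 1 of 5 was lower and 4 were neither (-1.38 to 0.96). Both groups were likewise chosen after the values were seen and need not hold every protein at these sites. Their counts depend on which proteins were picked, so no contrast between the groups is drawn.

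There are 3 relatives of bacterial S18. In mammals mrps18b and mrps18c belong to the small subunit and mrps18a to the large one. Mrps18a read 109, 91, 89.4 and 14.7 FPKM (-2.80), mrps18b 78.4, 66.6, 41.2 and 5.99 FPKM (-3.51) and mrps18c 68.8, 74.4, 98.4 and 54.2 FPKM (-0.34). In stage III mrps18b was under its levels of stages I and II, while mrps18c was above them. Mrps6, whose bacterial relative pairs with S18, read 145, 117, 121 and 23 FPKM (-2.60).

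Some names cover more than 1 locus, and the sources used here do not state how reads were divided among such loci. The values of single copies are therefore uncertain. The 2 loci of MRPL53 on chromosome 19 lie 101573 bases apart. MRPL53 (1 of 2) was listed at 0 in stage IV after 42.4 FPKM in stage III, and MRPL53 (2 of 2) read 27, 32.7, 22.9 and 4.24 FPKM. Summed over both, the levels were 41.8, 44.3, 65.3 and 4.24 FPKM, a difference of -3.03 between stages IV and I. The 2 loci of MRPS12 on chromosome 21 lie 62598 bases apart and summed to 11.5, 10.9, 13.3 and 2.15 FPKM (-1.98). MRPS12 (1 of 2), like MRPL53 (1 of 2), was listed at 0 in stage IV, so neither has a fold, and both are counted among the 50 lower members.

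The 73 loci on numbered chromosomes were spread over 22 of them, with 9 on chromosome 19. Neighbours on a chromosome did not always have matching values. On chromosome 7, mrps11 (-0.049) and mrpl46 (-1.38) are separated by 214 bases, and on chromosome 19 mrpl24 (-4.29) and mrpl9 (-0.53) by 12169 bases. Mrpl16 (-0.54) and mrpl39 (-0.68), 1871 bases apart on chromosome 1, had similar differences. Whether strand was used in the quantification is not given, so reads of close or overlapping loci may not be cleanly divided.

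By evolutionary origin, sorted after the values were seen, both groups held mostly lower loci. Among 41 loci with a bacterial counterpart 29 were lower and 2 higher (median -2.27), and among 26 mitochondria-specific ones 17 were lower and 2 higher (median -2.02). Locus length moved with the result. Of 27 members whose locus spans under 5000 bases 22 were lower and 1 higher (median -2.98), and of 44 longer ones 28 were lower and 3 higher (median -1.93). Across members r between log10 span and the difference was 0.29 (rho 0.31), and over all loci 0.17 (0.16). The part of locus length in the result was not tested.

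Further proteins of the mitochondrial ribosome, and proteins bound to it that have other names, were mostly lower as well. Stage IV was lower than stage I in 7 of 9 such genes and higher in 0, and the median difference was -3.37. Aurkaip1, known also as mS38, read 90.3, 105, 103 and 3.07 FPKM (-4.49). For oxa1l, the inner membrane insertase that receives new chains, the values were 21, 27.6, 26.5 and 0.426 FPKM (-3.95). Dap3, a GTP-binding small subunit protein, was at 36.1, 43.1, 48.3 and 20.1 FPKM and differed by -0.81.

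Factors that work with the mitochondrial ribosome were next. Of 14 translation factors 10 were lower and 0 higher (median -2.67). Tufm, the elongation factor that brings aminoacyl-tRNA to the ribosome, read 87.1, 92.6, 94.1 and 4.14 FPKM (-4.10). Its exchange factor tsfm, which recharges it with GTP, read 59.6, 94.4, 52.9 and 64.4 FPKM (0.11). Gfm1, the factor that drives translocation, read 17.7, 26.1, 22.2 and 16.5 FPKM (-0.096). Of these 3 elongation factors, 1 had a transcript that was far lower in stage IV and 2 differed by less than 2-fold.

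Among 19 aminoacyl-tRNA synthetases and related enzymes 10 were lower and 2 higher (median -1.22). Nars2, for asparagine, stood lowest at -3.74, and TARS2, for threonine, highest at 1.21 with 17.1, 15.3, 17.3 and 40.9 FPKM. Of 25 genes for assembly and ribosomal RNA modification 18 were lower and 2 higher (median -1.85). Nsun4, which methylates the small ribosomal RNA and takes part in joining the subunits, read 45, 30.5, 20.9 and 2.03 FPKM (-3.92). MALSU1, which in humans binds the large subunit beside the L14 protein during assembly, read 56.6, 41.5, 23.8 and 3.76 FPKM (-3.60), and like mrpl14 was lower in stage IV.

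In stage IV 2 assembly genes stood higher. Trub2, a pseudouridine synthase, read 68.4, 79.6, 48.1 and 169 FPKM (1.29), and mpv17l2, a membrane protein associated with the large subunit, read 42, 40.7, 54.6 and 93.9 FPKM (1.14). Of 17 genes for mitochondrial transcription and mRNA handling 9 were lower and 0 higher (median -1.56). Tfam, which packs and transcribes mitochondrial DNA, read 16.2, 23.2, 24.9 and 1.60 FPKM (-2.72), and lrpprc, which stabilises mitochondrial mRNAs, read 26.6, 31, 25.1 and 32.9 FPKM (0.30). The lower shares of this list (52.9%) and of the synthetases (52.6%) were near the 44.4% of all loci. Those of the translation factors (71.4%) and assembly genes (72%) were closer to the members' 70.4%.

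The messages that this ribosome translates had another course. All 13 mitochondrially encoded mRNAs were higher in stage IV than in stage I (median 2.13), and their share of all FPKM was 1.84, 4.89, 9.14 and 8.78 percent in stages I to IV. That share was already at its highest in stage III, when the members were still at their earlier level. Between stages III and IV, 12 of the 13 differences were below 0 (median -0.52), and 0 reached 2-fold in either direction. With these genes left out of the scaling, the members' median for stage IV against stage I was -1.93 in place of -2.18.

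The cytosolic ribosome had a narrower spread of differences. Stage IV was lower in 61 of 80 cytosolic ribosomal protein genes and higher in 0. The median difference was -1.28, with an interquartile range of 0.70. The members' range was 2.16, and that of all loci was 2.46, so the narrow spread belonged to the cytosolic set. Their summed FPKM was 1.54 times as high in stage I as in stage II, a dip the members did not have (ratio 1.02). No test of the difference between the 2 sets was possible with 1 library per stage.

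**Figure D4:**
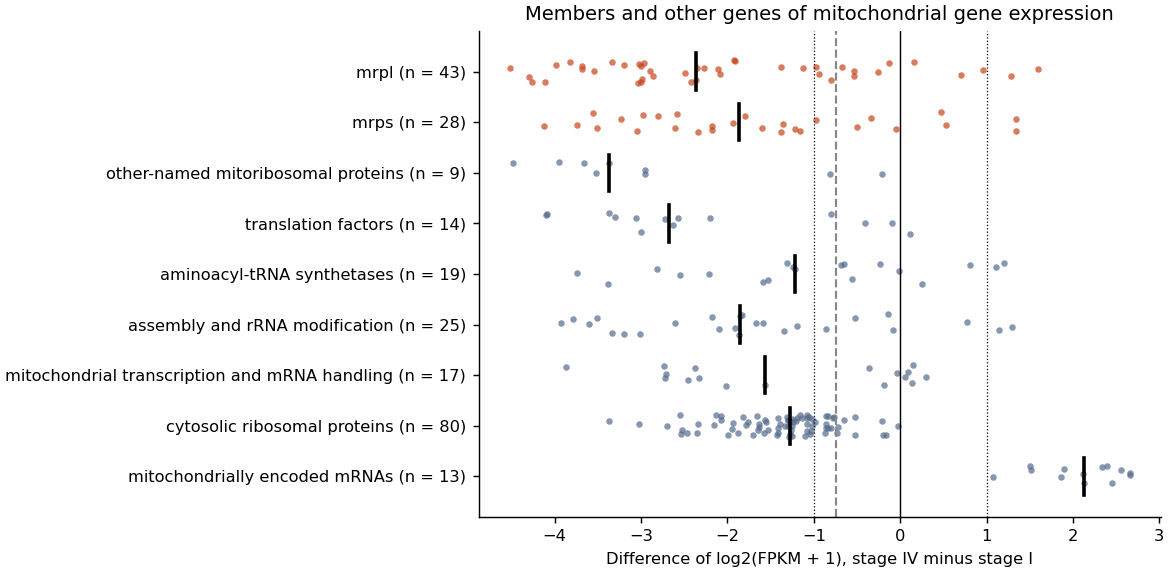
Stage IV against stage I in the mitochondrial translation lists. Each point is 1 gene's difference of log2(FPKM + 1), stage IV minus stage I, grouped by list; the black bar is the list median, the grey dashed line the median of all tested loci (-0.75) and the dotted lines mark -1 and 1. The mitochondrial ribosomal proteins spread from -4.52 to 1.60, the cytosolic ribosomal proteins lie closer together, and the 13 mitochondrially encoded mRNAs all lie above 1.

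Markers of other ovarian cells were also low in the stage IV library. The summed FPKM of the stromal and smooth muscle list (8 loci) was 249.9, 77.3, 275 and 3.11 in stages I to IV, that of the follicle cell list (15 loci) 593, 375, 714 and 176, and that of the blood and macrophage list (9 loci) 59.3, 30.5, 104 and 7.02. In stage IV against stage I, 7 of 7 stromal, 9 of 13 follicle and 7 of 7 blood markers that averaged 1 FPKM or more were lower, and none was higher. Among the follicle markers fshr, lhcgr, star and foxl2 were listed at 0 in stage IV. They were already low at stage I, at 0.469, 1.08, 0.715 and 2.99 FPKM, and stood at 4.59, 18.3, 10.2 and 4.36 FPKM in stage III. By contrast cyp11a1 had 170.5 FPKM in stage IV after 224 at stage I. This 1 locus made up most of the follicle list's stage IV sum of 176, so that sum does not describe the other follicle loci. The more abundant locus FOXL2 read 14.4, 15.3, 28.5 and 1.63 FPKM in stage order (stage IV bounds 0.901 to 2.36). Among blood markers mpeg1 was listed at 0 in stage IV, and MPEG1 (1 of 3) read 0.524 FPKM there. Between stages II and III the stromal sum differed 3.56-fold, and the members' sum 1.05-fold. Between stages I and IV the same sums differed 80.3-fold and 2.69-fold. The part of these cells in the members' levels was not tested at any stage.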

How the data were processed

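The authors deposited 1 table of FPKM per oocyte stage, with confidence bounds on each side, per the file headers. Bowtie2 2.2.2, STAR 2.5.3a, Bismark and Trim Galore and the build danRer7 stand without roles in the submitters' processing notes; the quantification program and its use of strand are not stated there. Per the labels' protocols, RNA was selected by its poly(A) tail, and tail shortening could remove an intact transcript from a library.

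Members were matched by symbol and joined across files on symbol and locus. The deposited starts are 0-based (10 of 13 mitochondrial protein genes then have lengths divisible by 3), and 1 was added. Differences are of log2(FPKM + 1), a scale that understates the change of low genes, over loci averaging 1 FPKM or more; a difference of at least 1 is called higher or lower. With 1 library per stage no test was run. Fragment equivalents are (2 FPKM/(upper bound - FPKM)) squared, and the depth itself is unknown; their sums over loci lay between 6201820 and 6606980 per library and are lower limits. The calling steps were run on simulated data without noise, in which the set changes lay well past the 2-fold size. That run checks the code and cannot show how calls fare at low or noisy loci.

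The members, the lists and the alternatives were chosen with earlier results of these data known. Named genes are the 5 highest and lowest members by mean FPKM, the 5 most positive and negative per comparison, members called in the minority direction or listed at 0, multi-locus names, landmark proteins, and up to 3 genes at each end of the other lists; further genes were chosen after their values were seen. Promoter motifs and protein sequences were not analysed here. Python 3.11.15, pandas 2.3.3, numpy 2.4.6, scipy 1.17.1 and matplotlib 3.10.9 were used.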

Additional observations from a re-analysis of the deposited data

How the results depend on the processing

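The low levels of most members in stage IV held their direction and size class under the 11 alternatives tried for stage IV against stage I: the median ran from -2.38 (pseudocount 0.1) to -1.82 (pseudocount 5), with 47 to 53 members lower and 4 to 6 higher. In 46 members the lower call, and in mrpl13, mrpl28, mrps25 and mrps30 the higher call, stood in every planned setting other than the 10 FPKM filter and the choice of loci. Under median-of-ratios scaling, which shifts stage IV against stage I by 0.39 (log2) and puts the median of all loci at -0.46, mrpl10, mrps10 and mrps27 were no longer called and mrpl18 and mrpl48 were called higher. Of 105 recomputed counts and medians 93 stayed close to the reported value, and 12 did not. Close means within a factor of 1.5 for a count. For a median it means inside a binomial interval of the median over members, which treats genes as independent and is no measurement error. Part of the 93 could not move. Taking 1 locus per symbol, among the alternatives above, kept the same tested loci and so fixed its 12 results. Dropping the 1 FPKM filter added only the 4 member loci listed at 0 in every library, which cannot change a count of members. The demand for separate bounds does not enter a median. Among the 12 results that did not stay close are 2 medians that changed sign, both of comparisons among stages I to III. With median-of-ratios scaling stage II against stage I had a median of -0.17 and 1 lower member, stage III against stage II a median of 0.23, and stage IV against stage III 6 higher members. Scaling without mitochondrially encoded genes gave medians of 0.23 and -0.044 for the first 2 comparisons, 1 higher member in stage III against stage II and 3 in stage IV against stage III. A pseudocount of 5, a mean of at least 10 FPKM and the demand for separate bounds each left 1 higher member in stage III against stage II, and a pseudocount of 0.1 gave 1 higher member in stage IV against stage III. Stage II and the mean of stages I to III as reference (medians -2.29 and -2.36) and the removal of loci under 20 fragment equivalents in both stages I and IV (-2.22) were chosen after seeing the data. That removal took out 1 member and left 70, so it is no check on the 11 members that rest on under 20 fragment equivalents in stage IV. No paired analysis was possible because each stage has 1 library and no replicate numbers, and for the same reason no library could be left out. The search for promoter motifs was not run.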
